A study of Mus musculus with 4 samples.

Results

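The 39 genes described here are those of B cell identity and of signalling from the B cell receptor: the receptor's signal chains, its kinases and adaptors, coreceptors that dampen or extend its signal, survival and innate receptors, transcription regulators and surface markers of splenic B cells. They were taken by name, and each is given by the probe set whose annotation names that gene alone. Of the 39 genes, 38 were measured among the 19938 genes with such a probe set, and Lyn was not. The arrays came from mouse spleen of the C57BL/6 strain. A pair of arrays holds CD4+ lymphoma cells of homozygous Tet2 gene trap mice, in which an insertion disrupts the gene for a 5-methylcytosine dioxygenase, and a second pair holds CD4+ splenocytes of wild type (WT) mice, so n = 2 in each group. No age, cell purity or number of animals was given, so the spread within a group may be partly technical, and p-values measure only the spread between these samples. The lymphoma is also the mutant and the WT sample is also the healthy one, so genotype and disease cannot be told apart.

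Both kinds of sample were collected from spleen after red cell lysis with a CD4 antibody on magnetic columns, and most of these genes are known from B cells rather than CD4+ T cells. On a B cell the antigen receptor is a membrane immunoglobulin joined to the Cd79a and Cd79b chains. Their tyrosine motifs are phosphorylated by Src family kinases such as Lyn and Blk and then bind the kinase Syk, which acts through the adaptor Blnk, the kinase Btk and the phospholipase Plcg2. In the spleen most mature B cells are follicular, recirculating cells that carry the IgE receptor Fcer2a (CD23), while marginal zone B cells stay near the sinus and carry much complement receptor Cr2 (CD21) and the lipid receptor S1pr3. Array values are the authors' linear intensities, and differences are lymphoma minus WT on the log2 scale from limma, called where the adjusted p over all genes was under 0.05.

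The markers Cd3e and Cd4 of the labelled cell type were among the brightest genes on every array. Cd3e, a chain of the T cell receptor complex, had intensities of 7271 and 7720 in the lymphoma pair, against 5823 and 5806 in the WT pair. Cd4 had 5839 and 7134 in the lymphoma pair, against 4552 and 5153 in the WT pair. The targeted gene Tet2 had 596 and 399 in the lymphoma pair, against 980 and 1016 in the WT pair (log2 difference -1.03, SE 0.24, adjusted p = 0.077). Tet2 was lower in the lymphoma pair but did not pass. The median intensity over all genes lay between 155 and 166 on the 4 arrays.

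All 38 measured B cell genes had a negative difference, and the median was -2.25, beside -0.04 over all 19938 genes. At the threshold 28 of the 38 fell and 0 rose, where 2.46% of all genes fell and 1.82% rose. Both lymphoma values lay below both WT values for 36 of the 38 and above them for none, where 23.5% of all genes lay below and 20.6% above. A fall of more than 4-fold was seen for 23 of them (0.818% of all genes) and of more than 8-fold for 9 (0.236% of all genes). The differences ran between -4.39 for Cr2 and -0.17 for Pou2af1, with an SD of 1.00 across the 38 genes. In RNA from a bulk sample, fewer B cells and less of these transcripts per cell cannot be told apart. The median of the 38 moved to -2.05 on leaving out WT array 1 and to -2.51 on leaving out WT array 2. Leaving out a lymphoma array put it at -2.58 (array 1) or -2.07 (array 2). With either WT array left out no call held in limma. Each such fit rests on the spread of the 1 remaining pair, so its calls are not set beside the 28. With all probe sets tested 14 calls ended: those of Cd79a, Cd79b, Bank1, Swap70, Cd72, Fcrla, Fcrl1, Tnfrsf13c, Ebf1, Pax5, Spib, Hhex, Ms4a1 and Cd24a. With a robust variance trend 6 ended: Cd79a, Cd79b, Bank1, Spib, Ms4a1 and Cd24a.

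**Figure D1:**
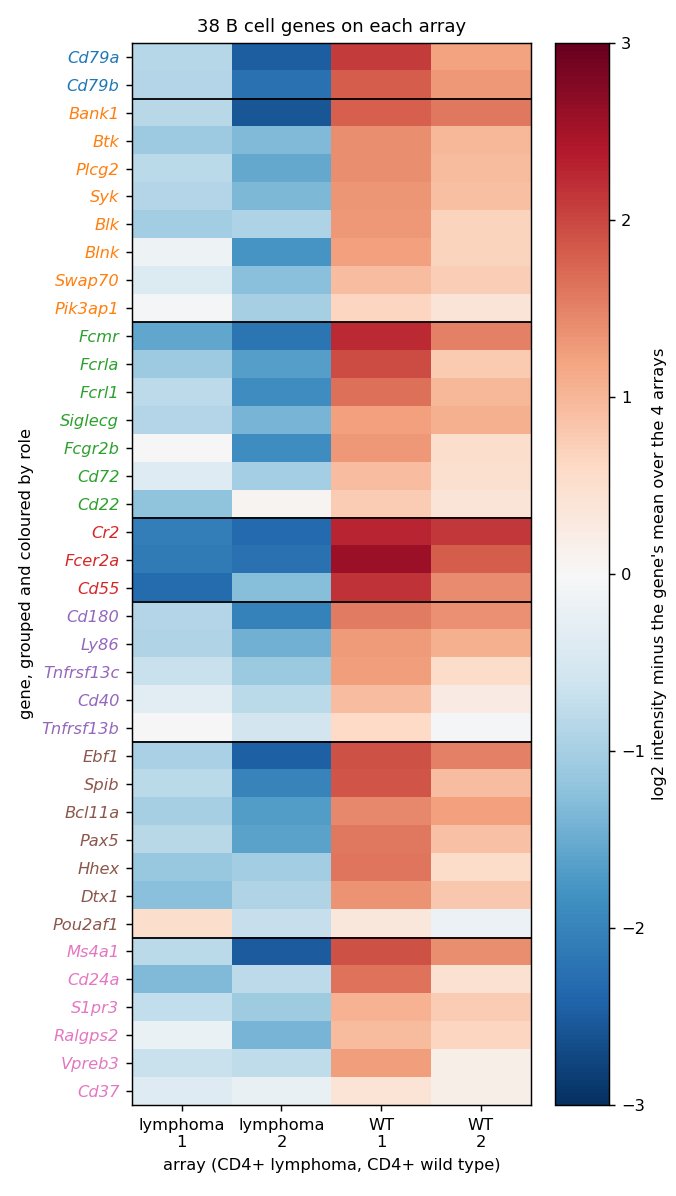
Each row is 1 of the 38 measured B cell genes, grouped and coloured by role, and each column is 1 array. The colour gives log2 intensity minus that gene's mean over the 4 arrays. The WT columns are red and the lymphoma columns blue in most rows, and Pou2af1 and Tnfrsf13b are the 2 rows in which the groups overlap.

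**Figure D2:**
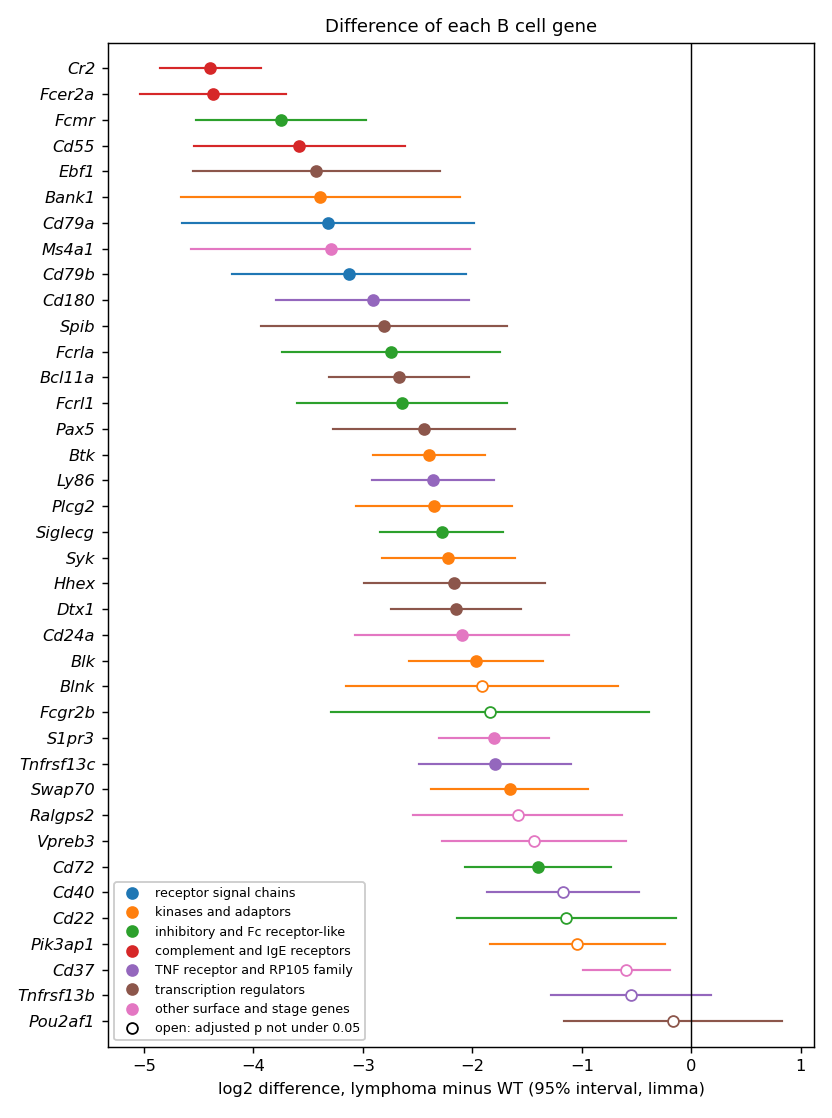
Points give the log2 difference of lymphoma minus WT for the 38 genes, ordered by size, with the 95% interval from limma. Filled points passed an adjusted p under 0.05, and open points did not. The differences run between -4.39 for Cr2 and -0.17 for Pou2af1.

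Both signal chains of the receptor fell. Cd79a (Ig alpha) had intensities of 519 and 168 in the lymphoma pair, against 4016 and 2175 in the WT pair. Its log2 difference was -3.32 (SE 0.55, adjusted p = 0.028). Cd79b (Ig beta), its partner in the same complex, had 660 and 258 in the lymphoma pair, against 4305 and 3024 in the WT pair. It fell by 3.13 (SE 0.44, adjusted p = 0.017). Both calls ended with a robust variance trend (limma adjusted p = 0.14 for Cd79a and 0.051 for Cd79b) and with all probe sets tested (0.079 and 0.055). For both chains the groups did not overlap, and lymphoma array 2 was the lowest of the 4. The ratio of the chains overlapped between the groups: Cd79a minus Cd79b was -0.48 ± 0.19 in lymphoma and -0.29 ± 0.27 in WT on the log2 scale (SD, n = 2 each).

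Of the 8 measured kinases, adaptors and enzymes, 6 fell and 2 did not pass, and the median was -2.09. The scaffold Bank1, which links the receptor to calcium release, had 363 and 108 in the lymphoma pair, against 2234 and 1927 in the WT pair (log2 difference -3.39, SE 0.53, adjusted p = 0.023). Btk, the Tec family kinase through which Syk acts, had 78.9 and 67.2 in the lymphoma pair, against 443 and 333 in the WT pair. Its log2 difference was -2.40 (SE 0.21, adjusted p = 0.0050). For both genes the lymphoma arrays lay far below the WT arrays, but the Bank1 call ended with a robust variance trend (limma adjusted p = 0.10) and with all probe sets tested (0.068).

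Plcg2, the phospholipase that releases calcium downstream of Btk, fell by 2.35 on the log2 scale. Its intensities were 247 and 149 in the lymphoma pair, against 1133 and 842 in the WT pair. Syk, which binds the phosphorylated signal chains, had 327 and 235 in the lymphoma pair, against 1500 and 1111 in the WT pair, and fell by 2.22. Both genes are also used by myeloid cells.

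The Src family kinase Blk had 189 and 208 in the lymphoma pair, against 969 and 622 in the WT pair, and fell by 1.97. Swap70, a signalling protein of activated B cells, had 375 and 210 in the lymphoma pair, against 943 and 835 in the WT pair, and fell by 1.66. The calls did not extend to the adaptors Blnk and Pik3ap1. Blnk had 412 and 135 in the lymphoma pair, against 1081 and 727 in the WT pair (log2 difference -1.91, SE 0.51, adjusted p = 0.12). Pik3ap1, the adaptor BCAP that recruits phosphoinositide 3-kinase, had 1043 and 531 in the lymphoma pair, against 1667 and 1407 in the WT pair (log2 difference -1.04, SE 0.33, adjusted p = 0.18). In both, the lymphoma arrays were below the WT arrays but differed from each other by 1.61 and 0.97 on the log2 scale.

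Among the 7 inhibitory and Fc receptor-like genes, 5 fell and 2 did not pass, with a median of -2.28. The strongest was Fcmr, the receptor for the IgM constant region, with 208 and 134 in the lymphoma pair, against 2892 and 1743 in the WT pair (log2 difference -3.75, SE 0.32, 13.4-fold lower, adjusted p = 0.0045). Fcrla and Fcrl1, relatives of the Fc receptors expressed in B cells, fell by 2.74 and 2.65. Siglecg, a sialic acid-binding inhibitor of receptor signalling, had 231 and 161 in the lymphoma pair, against 992 and 886 in the WT pair, and it fell by 2.28. Cd72, another inhibitory coreceptor, had 750 and 484 in the lymphoma pair, against 1859 and 1361 in the WT pair. It fell by 1.40 (SE 0.28, adjusted p = 0.048), and the call ended under 4 other settings that used all arrays: array medians subtracted, no trend of the variance, an offset before log2 and all probe sets.

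The other two of this group had lymphoma arrays that disagreed. Fcgr2b, the inhibitory IgG receptor that myeloid cells also carry, had 417 and 114 in the lymphoma pair, against 1017 and 593 in the WT pair (log2 difference -1.84, SE 0.60, adjusted p = 0.20). Cd22, a sialic acid-binding inhibitor found on B cells, had 652 and 1590 in the lymphoma pair, against 2561 and 1968 in the WT pair (log2 difference -1.14, SE 0.41, adjusted p = 0.25). Lymphoma array 2 was low for Fcgr2b but close to the WT arrays for Cd22. Cd22 minus Cd79a on the log2 scale was 0.33 and 3.24 in the lymphoma pair, against -0.65 and -0.14 in the WT pair.

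The 3 genes grouped as complement and IgE receptors all fell, with a median of -4.37. Cr2, the receptor for complement fragments that lowers the threshold of receptor signalling, had 54.3 and 45.2 in the lymphoma pair, against 1105 and 981 in the WT pair. It fell by 4.39 (SE 0.19, 21.0-fold lower, adjusted p = 0.00092). Fcer2a had 61.3 and 56.9 in the lymphoma pair, against 1588 and 938 in the WT pair, and fell by 4.37 (SE 0.28, 20.7-fold lower, adjusted p = 0.0021). Both were uniformly low on the lymphoma arrays, where they lay below the 25th percentile of all genes on each array. No detection calls were used, so a fold from so low a value may be understated.

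Cd55, which protects cells from complement and is expressed on many cell types, had 52.0 and 106 in the lymphoma pair, against 1150 and 686 in the WT pair. It fell by 3.58 (SE 0.40, adjusted p = 0.0082). In contrast to Cr2 and Fcer2a, its lowest value was on lymphoma array 1. That value was at percentile 18.5 of all genes on the array, so the caution about low values applies there too.

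The promoters of 5 of these genes are given for the 2 largest falls (Cr2 and Fcer2a), a signal chain (Cd79a), the gene that exceeded its level on lymphoma array 1 most on array 2 (Cd22) and the smallest difference (Pou2af1). Each runs from 250 bases before the annotated start to 50 bases after it, 5′ to 3′ on the strand of the gene, from RefSeq on build GRCm38.p6, in which 33 of the 39 genes had a promoter. For Fcer2a, with 3 starts in that table, the most upstream was taken. The windows are chr1:195176670-195176969 (minus strand) for Cr2, chr8:3694125-3694424 (minus) for Fcer2a, chr7:24897247-24897546 (plus) for Cd79a, chr7:30878979-30879278 (minus) for Cd22 and chr9:51213440-51213739 (plus) for Pou2af1. Capitals mark matches on either strand to the octamer ATTTGCAT bound by Oct factors, the Ebf1 palindrome (TCCC and GGGA with any 2 bases between), or the core AGGAAGT bound by PU.1 and its relatives.
Cr2: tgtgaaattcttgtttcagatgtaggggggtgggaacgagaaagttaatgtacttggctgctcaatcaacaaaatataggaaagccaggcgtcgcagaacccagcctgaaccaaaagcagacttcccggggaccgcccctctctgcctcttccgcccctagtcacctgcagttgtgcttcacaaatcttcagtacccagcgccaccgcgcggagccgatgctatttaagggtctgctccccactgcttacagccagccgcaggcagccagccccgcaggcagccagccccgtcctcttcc
Fcer2a: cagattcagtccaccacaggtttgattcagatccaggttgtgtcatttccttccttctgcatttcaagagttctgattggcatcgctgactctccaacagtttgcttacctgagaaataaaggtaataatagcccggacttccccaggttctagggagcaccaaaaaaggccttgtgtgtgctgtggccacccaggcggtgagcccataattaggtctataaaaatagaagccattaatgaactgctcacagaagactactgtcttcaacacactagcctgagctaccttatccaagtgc
Cd79a: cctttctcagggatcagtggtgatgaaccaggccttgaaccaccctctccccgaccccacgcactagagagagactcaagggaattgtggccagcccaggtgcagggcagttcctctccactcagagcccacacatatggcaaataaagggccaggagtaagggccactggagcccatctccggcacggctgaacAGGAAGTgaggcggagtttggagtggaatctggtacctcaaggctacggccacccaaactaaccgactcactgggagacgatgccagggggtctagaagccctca
Cd22: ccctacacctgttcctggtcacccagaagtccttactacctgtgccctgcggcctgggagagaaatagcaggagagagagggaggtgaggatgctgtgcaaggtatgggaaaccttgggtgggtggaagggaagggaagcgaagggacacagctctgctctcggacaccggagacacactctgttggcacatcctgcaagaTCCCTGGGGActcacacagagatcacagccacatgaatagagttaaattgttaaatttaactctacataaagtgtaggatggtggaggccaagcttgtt
Pou2af1: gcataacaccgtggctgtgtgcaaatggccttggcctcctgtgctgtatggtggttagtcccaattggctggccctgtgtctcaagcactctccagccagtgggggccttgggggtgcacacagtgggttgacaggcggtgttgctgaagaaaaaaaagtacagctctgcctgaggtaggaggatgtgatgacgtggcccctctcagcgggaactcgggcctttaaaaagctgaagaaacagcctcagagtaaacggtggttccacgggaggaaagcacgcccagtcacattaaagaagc

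Cd79a held the AGGAAGT core, starting 55 bases before the annotated start, and Cd22 held the palindrome, starting 49 bases before it. No match overlapped another, and the other 3 windows held none of these letters. Over all members with a promoter, the core was found in 7 of 33 (21.2%), beside 10.7% of 27025 genes. The octamer was found in 2 of 33 (6.06%), beside 1.97% of genes, and the palindrome in 1 of 33 (3.03%), beside 1.06%. Of the members that held the core, Cd79a, Fcrl1 and Cd72 fell, while Blnk, Vpreb3, Cd37 and Tnfrsf13b did not pass. A match is a run of letters and was not tested as a binding site.

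Of the 5 genes of the TNF receptor family and of the RP105 complex, 3 fell and 2 did not pass (median -1.79). Cd180 (RP105), a Toll-like receptor relative, had 647 and 295 in the lymphoma pair, against 3505 and 3086 in the WT pair (log2 difference -2.91, SE 0.36, adjusted p = 0.011). Ly86 (MD-1), the secreted partner that Cd180 needs at the surface, had 874 and 600 in the lymphoma pair, against 4003 and 3437 in the WT pair, and fell by 2.36. Both are also expressed in myeloid and dendritic cells. Tnfrsf13c, the BAFF receptor on which mature B cells depend for survival, had 748 and 550 in the lymphoma pair, against 2827 and 1746 in the WT pair, and fell by 1.79.

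Cd40, the receptor through which T cells help B cells, had 322 and 233 in the lymphoma pair, against 774 and 490 in the WT pair (log2 difference -1.17, SE 0.29, adjusted p = 0.092). Tnfrsf13b (TACI), a second receptor for BAFF and for APRIL, had 486 and 329 in the lymphoma pair, against 737 and 465 in the WT pair. Its difference was -0.55 (95% interval -1.28 to 0.18, adjusted p = 0.49), and lymphoma array 1 lay above WT array 2.

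Of the 7 transcription regulators, 6 fell and 1 did not pass (median -2.44). Ebf1, which specifies the B lineage, had 208 and 74.9 in the lymphoma pair, against 1537 and 1167 in the WT pair (log2 difference -3.42, SE 0.47, adjusted p = 0.015). Pax5, which commits cells to that lineage, had 320 and 186 in the lymphoma pair, against 1690 and 1040 in the WT pair (log2 difference -2.44, SE 0.34, adjusted p = 0.016). Spib, an Ets factor of B cells and plasmacytoid dendritic cells, fell by 2.81, and Bcl11a, which is shared by the same cells, fell by 2.67.

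The homeobox factor Hhex had 69.1 and 73.4 in the lymphoma pair, against 460 and 221 in the WT pair, and fell by 2.16. Dtx1 (Deltex), a target of Notch signalling that is high in marginal zone B cells, had 593 and 758 in the lymphoma pair, against 3582 and 2466 in the WT pair, and fell by 2.15. For these 2 regulators lymphoma array 2 was not the lower one.

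Pou2af1 (OCA-B), the coactivator that joins Oct factors at octamer sites, stood apart from the other regulators. It had 1871 and 795 in the lymphoma pair, against 1631 and 1148 in the WT pair. Lymphoma array 1 was the highest of the 4 and lymphoma array 2 the lowest, so the groups overlapped. The difference was -0.17 (95% interval -1.16 to 0.83, adjusted p = 0.93), and it was 0.45 without lymphoma array 2 and 0.09 without WT array 1. Pou2af1 minus Cd79a on the log2 scale was 1.85 and 2.24 in the lymphoma pair, against -1.30 and -0.92 in the WT pair.

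The last 6 genes are surface and stage markers, of which 3 fell (median -1.69). Ms4a1 (CD20), a membrane protein of mature B cells, had 385 and 120 in the lymphoma pair, against 2509 and 1767 in the WT pair (log2 difference -3.29, SE 0.53, adjusted p = 0.024). Its call ended with a robust variance trend (limma adjusted p = 0.11) and with all probe sets tested (0.073). Cd24a, a lipid-anchored protein high on immature B cells and present on other blood cells, had 263 and 383 in the lymphoma pair, against 2031 and 905 in the WT pair. It fell by 2.09 (adjusted p = 0.044), and the call ended in 6 other settings that used all arrays, among them quantile normalization and a robust trend. S1pr3, the sphingosine 1-phosphate receptor of marginal zone B cells, had 126 and 99.6 in the lymphoma pair, against 428 and 354 in the WT pair, and fell by 1.80.

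The remaining genes of this group did not pass. Ralgps2, an exchange factor for Ral, had 395 and 171 in the lymphoma pair, against 867 and 701 in the WT pair (log2 difference -1.59, adjusted p = 0.095). Vpreb3, a chaperone-like protein of the B lineage, had 102 and 95.5 in the lymphoma pair, against 388 and 184 in the WT pair (log2 difference -1.43, adjusted p = 0.089). Cd37, a tetraspanin that T cells also carry, had 2666 and 2974 in the lymphoma pair, against 4588 and 3934 in the WT pair (log2 difference -0.59, SE 0.16, adjusted p = 0.13). For all of them both lymphoma values lay below both WT values.

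Whether the fall was the same for every gene was asked by setting each gene against the mean log2 level of the B cell anchors Cd79a, Cd79b, Ms4a1 and Cd22 on its own array. The anchor mean was 9.08 and 8.24 in the lymphoma pair, against 11.66 and 11.09 in the WT pair, a difference of -2.72. Of the 34 other members, 9 lay further down than the anchors and 25 less far. In limma 2 of the 34 were lower than the anchors (0.0702% of all genes were), Cr2 by 1.67 and Fcer2a by 1.65 (adjusted p = 0.0072 and 0.0073). Another 7 were higher relative to the anchors, as were 98.4% of all genes: Pou2af1 by 2.56, Tnfrsf13b by 2.17, Cd37 by 2.13, Pik3ap1 by 1.68, Cd40 by 1.55, Cd72 by 1.32 and Vpreb3 by 1.29.

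None of these relative calls held when each gene kept its own variance, and with other anchors only some held. The scatter of the anchors enters every gene alike, so limma took the variance as common to all genes and as known, with infinite prior degrees of freedom, and its p-values are too small. Without that moderation 0 of the 34 members passed (smallest adjusted p = 0.065), as did 0% of all genes in either direction. At an unadjusted p under 0.05, 3 members were lower and 8 higher. The share of all genes at that unadjusted threshold is not given, so these counts cannot be read as an excess. With Cd79a and Cd79b alone as anchors in limma, Cr2 was at -1.17 (SE 1.03, adjusted p = 0.26) and Fcer2a at -1.14 (adjusted p = 0.26). In that fit Pou2af1 was at 3.06 (adjusted p = 0.0051), Tnfrsf13b at 2.67 (0.0086) and Cd37 at 2.63 (0.011). These p-values come from the moderated fit, in which they are too small. A larger fall of Cr2 and Fcer2a than of the signal chains was thus not shown beyond the spread of the lymphoma arrays, and the sizes differed widely between genes.

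For description, 20 measured members were counted as chiefly restricted to the B lineage and 18 as shared with myeloid, dendritic, T or other cells. S1pr3 and Dtx1 were placed among the restricted genes, and Pou2af1, with the smallest difference, among the shared ones. The values below depend on such placements, which are open to dispute. Of the restricted genes 16 of 20 fell (median -2.54), and of the shared genes 12 of 18 fell (median -2.13). The mean level of the restricted minus that of the shared genes was -0.51 and -0.55 in the lymphoma pair, against 0.11 and 0.06 in the WT pair, a change of -0.62 on the log2 scale. The ranges of the differences overlapped, with -4.39 to -0.55 for restricted genes and -3.58 to -0.17 for shared ones.

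The 4 marginal zone members spanned nearly the whole range, with Cr2 at -4.39, Dtx1 at -2.15, S1pr3 at -1.80 and Tnfrsf13b at -0.55, of which the first 3 fell. Their mean level minus that of the remaining members without Fcer2a was -0.72 and -0.24 in the lymphoma pair, against -0.56 and -0.41 in the WT pair, which overlap. Only Fcer2a marks follicular cells among the 39, so its value describes 1 gene. Fcer2a minus those remaining members was -2.50 and -1.92 in the lymphoma pair, against 0.02 and -0.17 in the WT pair. The mean of the marginal zone members minus Fcer2a was 1.78 and 1.69 in the lymphoma pair, against -0.59 and -0.24 in the WT pair. Both of these contrasts separated the groups by more than the spread within each pair, and no test was made of them. The second came from Dtx1, S1pr3 and Tnfrsf13b, since Cr2 (-4.39) fell about as far as Fcer2a (-4.37). Cr2 is also carried by follicular B cells at a lower level, and its ratio to Fcer2a overlapped between the groups. Cr2 minus Fcer2a was -0.25 ± 0.11 in lymphoma and -0.23 ± 0.42 in WT (SD, n = 2 each). On both lymphoma arrays Cr2 and Fcer2a lay below the 25th percentile of all genes. Their ratio there may reflect background, so it cannot show which of them fell more.

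Genes of these subsets outside the 39 were as varied. In the list of 8 further marginal zone genes 3 fell (median -0.99). The log2 difference was -2.43 for Mzb1, which plasma cells also use, -2.14 for the scavenger receptor Cd36, which macrophages also use, and -1.16 for the receptor Notch2. Of 5 measured genes of follicular cells 1 fell, Klf2 by 1.48, a factor that resting T cells also express. The others did not pass: Bach2 at -1.96, Foxo1 at -0.80, Ccr6 at 0.57 and Cxcr5 at 0.74. Which cells of these CD4+ samples gave the transcripts was not tested, so the list cannot be taken to describe follicular B cells alone. The list had 3 negative and 2 positive differences and a median of -0.80.

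The replicate arrays of each group also differed in these genes. All 38 were higher on WT array 1 than on WT array 2, by a median of 0.51 on the log2 scale, where 54.6% of all genes were higher on array 1. On the lymphoma side 31 of the 38 were higher on array 1 than on array 2, by a median of 0.59 over the 38, where 56.4% of all genes were. The gap was 1.88 for Fcgr2b, 1.75 for Bank1, 1.68 for Ms4a1 and 1.62 for Cd79a. It ran the other way for 7 genes: Cd22 (-1.29), Cd55 (-1.03), Cd24a (-0.54), Dtx1 (-0.36), Cd37 (-0.16), Blk (-0.14) and Hhex (-0.09). Within 1 lymphoma array the fall was therefore uneven. On array 1, Cd79a was at -2.51 and Cd22 at -1.78 against the WT mean, while on array 2 Cd79a was at -4.13 and Cd22 at -0.50.

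**Figure D3:**
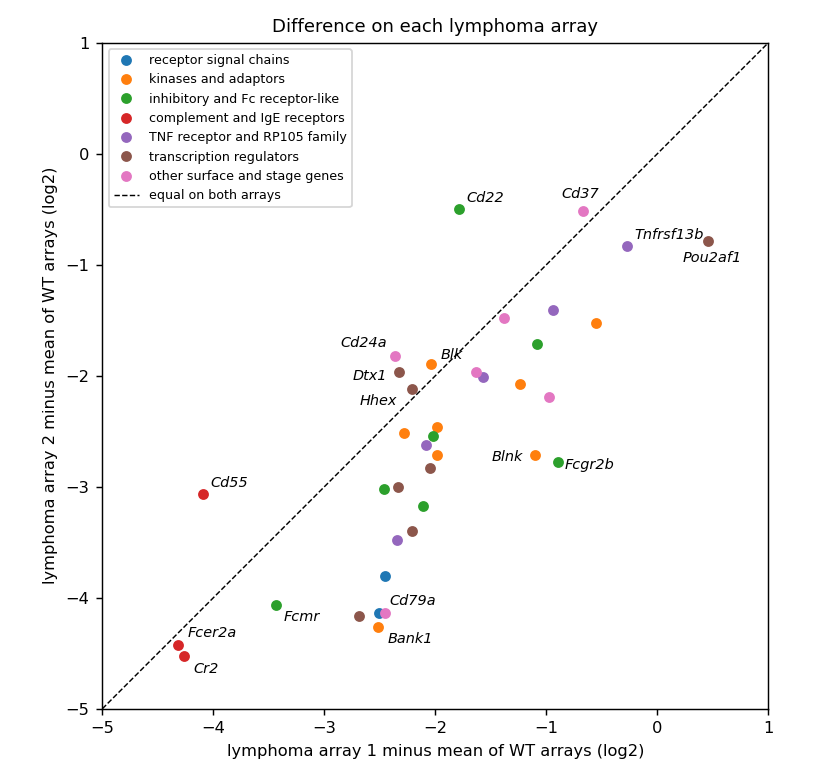
Each point is 1 of the 38 B cell genes, coloured by role, with the log2 difference from the mean of the WT arrays on lymphoma array 1 (horizontal axis) and on lymphoma array 2 (vertical axis). The dashed line marks equal differences. The 31 genes below it were lower on array 2, and Cd22 and Cd55 lie farthest above it.

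Components of the same pathway outside the 39 genes were taken from a list. Of 26 measured genes of the list of other receptor pathway genes, 2 fell, 0 rose and 24 did not pass, with a median of -0.15. The share that fell was 7.69%, where 2.46% of all genes fell. At an unadjusted p under 0.05, 7 were lower and 2 higher. No share of all genes at that unadjusted threshold is given for this list or those below, so such counts only describe the lists. Rasgrp3, the Ras exchange factor downstream of Plcg2, had 301 and 93.6 in the lymphoma pair, against 1180 and 935 in the WT pair, and fell by 2.65. Dok3, an adaptor that restrains receptor signalling, had 266 and 205 in the lymphoma pair, against 817 and 583 in the WT pair, and fell by 1.56. The differences of the 26 ran between -2.65 and 0.54, with 16 negative and 10 positive, and many of these genes also serve the T cell receptor.

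In a list of 17 other regulators and antigen presentation genes of B cells, 5 fell and 0 rose (median -0.72). H2-Ob, a modulator of class II peptide loading in B cells, had 579 and 329 in the lymphoma pair, against 4109 and 3237 in the WT pair, and fell by 3.06. The log2 difference was -2.67 for Spi1 (PU.1), -2.48 for Mef2c, a factor downstream of the receptor, -2.41 for the class II transactivator Ciita and -1.64 for the costimulatory ligand Cd86. Dendritic cells express most of these as well.

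Markers of some other cell types were lower on the same lymphoma arrays. Of 10 dendritic cell genes 7 fell (median -2.54), and their summed intensity was 1233 to 1258 in the lymphoma pair, against 4881 to 5851 in the WT pair. Of 14 macrophage and monocyte genes 11 fell (median -1.57), with sums of 3828 to 5385 in the lymphoma pair, against 14477 to 14603 in the WT pair. For 7 plasma cell genes, of which 2 fell, the sums were 4092 to 4692 in the lymphoma pair, against 7867 to 12882 in the WT pair. Jchain alone had 519 and 89.5 in the lymphoma pair, against 6607 and 3766 in the WT pair. The groups overlapped for Xbp1, Irf4 and Prdm1, and Prdm1 had a positive difference (0.53). The sum over the 38 B cell genes was 13064 to 17778 in the lymphoma pair, against 49202 to 69778 in the WT pair. In a cytotoxic T and NK cell list 1 of 7 genes fell, Tyrobp, with 6 negative differences and 1 positive (median -0.85). At an unadjusted p under 0.05 in limma, 4 of those 7 were lower and 1 higher, with no share of all genes to set beside them. The neutrophil, erythroid and platelet lists had no gene called lower. Neutrophil genes had 7 of 8 positive differences (median 0.15), of which 0 passed in limma, with 1 lower and 2 higher at an unadjusted p under 0.05. Of 5 erythroid genes 1 rose (median 0.20). Of 4 platelet genes 0 passed, adjusted or not, though all 4 differences were negative (median -0.10). No marker was at 0 on any array. Itgax, from the dendritic list, had 249 and 206 in the lymphoma pair, against 1535 and 1458 in the WT pair. Adgre1, from the macrophage list, had 115 and 117 in the lymphoma pair, against 1057 and 1110 in the WT pair. Zbtb46, Bst2 and Batf3 of the dendritic list and Cd14, Fcgr1 and Lyz2 of the macrophage list did not pass. Zbtb46 had 156 and 220 in the lymphoma pair, against 202 and 194 in the WT pair. The part of these cells in the fall of the 18 shared members was not tested.

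As a list, T cell markers did not fall with them. Of 9 measured T cell genes 0 passed in limma (median 0.32), and 4 differences were negative and 5 positive. At an unadjusted p under 0.05, 1 was lower (Cd5, difference -0.92) and 4 were higher, again with no share of all genes beside them. Trat1 had 125 and 690 in the lymphoma pair, against 458 and 421 in the WT pair. The summed intensity of the 9 genes was 30986 to 31679 in the lymphoma pair, against 26820 to 27289 in the WT pair. The replicate arrays ranked the cell types differently: macrophage and monocyte genes were lower on lymphoma array 1 (median gap -0.33 for array 1 minus array 2), while the B cell genes were higher there (0.59) and 5 of 10 dendritic genes were higher there (median 0.01, gaps between -0.49 and 0.36).

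**Figure D4:**
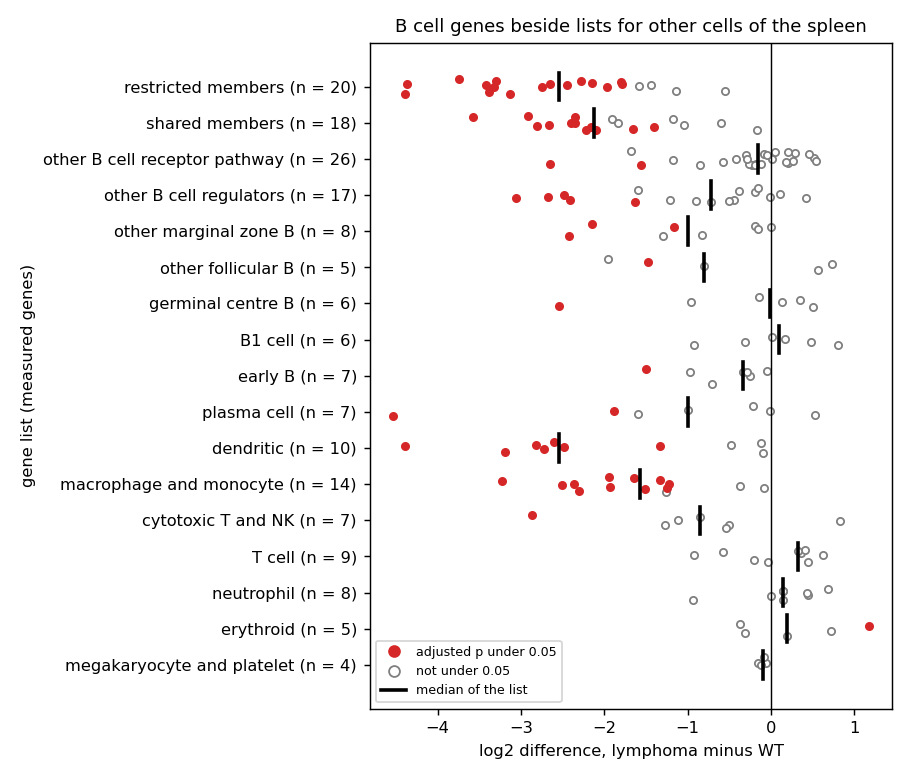
Each point is 1 gene, placed by its log2 difference of lymphoma minus WT, and each row is 1 list, with the number of measured genes. Red points passed an adjusted p under 0.05, open points did not, and the bar marks the list's median. The restricted B cell members (median -2.54) and the dendritic list (-2.54) lie lowest among the lists, and the T cell list (0.32) lies highest.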

How the data were processed

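Total RNA of 4 samples was labelled with biotin and hybridised to 1 single-channel Affymetrix array each. Per the submitters' processing notes the deposited linear intensity values were made with Affymetrix Expression Console. Its version is unknown here, and the sources used here do not state how it summarised, background-corrected and normalized the values. Here log2 was taken with no offset or filter. GEO's platform annotation gave 21789 of 35556 probe sets 1 symbol, 1621 several and 12146 none. The probe set with the highest mean stood for a gene with several, which applied to none of the 38 measured members. Groups came from the sample titles.

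Lymphoma was compared with WT in limma 3.58.1 (R 4.3.3), group only, with a variance trend, two-sided, and Benjamini-Hochberg adjustment over 19938 genes. The fit had 2 residual degrees of freedom (prior 4.24). With 4 arrays the median SE was 0.20, which limits the precision. The procedure was tested on simulated data. Any member could be named, and from other lists the called genes, the 2 largest where none was called, and markers. The members and lists were chosen with earlier results of these data known. Deviations of same-numbered arrays from their group means correlated at 0.23 over all genes, but with 2 pairs and no such label the numbers were not taken as pairing. Promoter sequences are from RefSeq. Figures used matplotlib 3.10.9.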

Additional observations from a re-analysis of the deposited data

How the results depend on the processing

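The median difference of the 38 members lay between -2.58 and -2.05 over all settings, and Pou2af1 was the only member whose sign turned, to 0.45 without lymphoma array 2 and 0.09 without WT array 1 (range with 1 array left out -0.78 to 0.45). The count of members that fell was 28. It was 14 when all 35556 probe sets were tested, with a larger adjustment, and between 22 and 31 in the other settings that kept all arrays. When 1 array was left out it lay between 0 and 34, and the count that rose stayed at 0. Of the other receptor pathway genes, 2 fell. This count was 4 under quantile normalization and with the replicate block, and 1 with array medians subtracted or without the variance trend. It was 3 with the lowest tercile left out or a robust trend, and 0 with all probe sets. For the other B cell regulators the count that fell was 5, with 4 for all probe sets and 6 for the replicate block.

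Relative to the anchors 2 members were lower and 7 higher, beside 0.0702% and 98.4% of all genes. Shares of all genes in the other anchor settings are not given, so the counts below are not results about the members. With the replicate block, which left 1 residual degree of freedom, these counts were 5 and 15. With Cd79a and Cd79b as anchors, and with Cd22 left out of the anchors (chosen after seeing the data), 0 were lower and 5 higher, while the median of the restricted members as anchor gave 2 and 5. Without moderation of the variance (also chosen after seeing the data) both were 0, and with 1 array left out they lay between 0 and 4 and between 0 and 12. The replicate block raised the members' count to 31, with 4 further members passing and Cd24a lost. Where an array was left out, the lone sample was assumed to vary like the opposite group's pair. With either WT array left out no gene passed. The cause of these changes was not tested. Linear intensities without detection calls limit what can be said of Cr2 and Fcer2a in lymphoma, and of Cd55 on lymphoma array 1.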

Other observations

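Few genes of other B cell stages passed. All 7 measured genes of early B cells had a negative difference (median -0.33), as had 11197 of all 19938 genes. The groups overlapped for 3 of those 7. Of 6 measured germinal centre genes 1 fell, Rgs13, a regulator of G protein signalling, with 20.2 and 21.2 in the lymphoma pair, against 136 and 107 in the WT pair (log2 difference -2.54, SE 0.20, adjusted p = 0.0032). The median of the 6 was -0.01. Of 7 genes of early B cells 1 fell, Cd93, 2.83-fold lower, and 0 of 6 genes linked to B1 cells passed in limma (1 lower and 1 higher at an unadjusted p under 0.05). Among those 6 the largest differences were -0.92 for Cd5 and 0.80 for Plscr1. In the plasma cell list Jchain had 519 and 89.5 in the lymphoma pair, against 6607 and 3766 in the WT pair, and fell by 4.53. The receptor Tnfrsf17 fell by 1.88.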
